A study of Mus musculus with 6 samples.

Results

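The 35 genes described here belong to the unfolded protein response and the integrated stress response. They were listed by name, with earlier results of these data known. They are 35 of the 55573 genes in the count table. The list has a chaperone arm of 12 genes, an Atf4 arm of 17 genes, and a group of 6 genes called sensors and kinases. That group holds sensors and kinases that start these responses, and *Xbp1*, a transcription factor that acts after a sensor. The cells came from adult C57BL/6J mice of both sexes. Control mice received AAV2-GFP in the vitreous and the other group received AAV2-Ezh2, so every animal carried a viral vector. All animals had their optic nerve crushed 2 weeks later, and there was no uninjured group. Retinal cells were sorted for CD90.2 and against a dead cell dye 3 days after the optic nerve crush (ONC), to enrich retinal ganglion cells (RGCs). There were 3 libraries in each group. The labels do not say whether the libraries came from separate animals or from pools, so the p-values below measure only the spread between these libraries. To ask how the 2 arms of the stress response differ between *Ezh2* overexpression and control after injury, read counts of the chaperone arm were set beside those of the Atf4 arm.

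The endoplasmic reticulum (ER) folds secreted and membrane proteins, and unfolded protein there is sensed by IRE1 (encoded by *Ern1*), ATF6 and PERK (encoded by *Eif2ak3*). IRE1 splices the *Xbp1* transcript and ATF6 is cleaved to an active form, and both then switch on ER chaperones such as BiP (encoded by *Hspa5*). PERK, like GCN2 (encoded by *Eif2ak4*), phosphorylates eIF2α. This lowers general translation while favouring translation of *Atf4*, whose protein drives genes for amino acid supply and, with CHOP (encoded by *Ddit3*), genes tied to cell death. In injured RGCs, the kinase DLK (encoded by *Map3k12*) carries the axon damage signal, and the PERK and ATF4 branch is known for its part in their death after axon injury.

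Part of the chaperone arm shares promoter letters. The ER stress element (ERSE), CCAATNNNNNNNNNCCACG, was searched on both strands in RefSeq promoters of build GRCm38.p6, each covering 250 bases before and 50 bases after a start site. It was found in 39 of 32851 promoters (0.119%). Promoters were listed for 31 of the 35 genes, and not for *Atf6*, *Hyou1*, *Manf* and *Slc7a5*. Of the 10 chaperone arm genes with a promoter listed, 6 held an ERSE, and none of 16 Atf4 arm genes or 5 genes of the sensor group did. The matches are printed because 6 of the chaperone arm genes have this element in common. They run 5′ to 3′ on the strand of the gene, with the element in capitals and up to 20 bases of flank. In *Calr* and *Creld2* the element runs the other way, and so appears as its reverse complement.
Hspa5, chr2:34772005-34772063, plus strand: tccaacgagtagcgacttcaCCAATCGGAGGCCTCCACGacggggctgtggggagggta
Pdia6, chr12:17266471-17266529, plus strand: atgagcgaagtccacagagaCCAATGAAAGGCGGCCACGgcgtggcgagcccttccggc
Dnajc3, chr14:118937807-118937865, plus strand: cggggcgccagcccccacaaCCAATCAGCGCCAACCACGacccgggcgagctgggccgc
Hsp90b1, chr10:86705618-86705676, minus strand: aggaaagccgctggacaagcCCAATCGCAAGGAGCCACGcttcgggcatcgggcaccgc
Calr, chr8:84847055-84847113, minus strand: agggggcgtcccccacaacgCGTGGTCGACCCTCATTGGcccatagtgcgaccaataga
Creld2, chr15:88819500-88819558, plus strand: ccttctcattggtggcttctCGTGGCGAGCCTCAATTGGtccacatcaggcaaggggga

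The element of *Hspa5* lay at bases -65 to -47 from the start site, and *Hsp90b1* held another match at -107 to -89. *Herpud1* had no ERSE but held the related ERSE-II, ATTGGNCCACG, which was in 0.0365% of promoters. UPRE, searched as TGACGTGG and present in 0.676% of promoters, was in none of the promoters listed for 31 of the genes. For the Atf4 arm, the C/EBP-ATF response element (CARE) was searched as TGATGNAA, a short motif that 3.97% of all promoters held. It was found in *Chac1*, *Asns* and *Trib3* of the Atf4 arm, in *Trib3* after the start site, and also in *Herpud1*. The CARE matches of 2 genes are shown because these genes behaved differently in the counts, with the element in capitals and that of *Chac1* in the reverse direction. ERSE-II and CARE do not overlap in *Herpud1*. A match describes letters in a window only.
Chac1, chr2:119351029-119351076, plus strand: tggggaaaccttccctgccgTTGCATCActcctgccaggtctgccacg
Asns, chr6:7693210-7693252, minus strand: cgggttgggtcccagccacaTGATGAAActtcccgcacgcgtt

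Library totals lay between 30569933 and 35971192 counts. *Ezh2* itself was at 28.8, 34.6 and 33.0 CPM (counts per 1000000 counts of the library) in GFP replicates 1 to 3 and at 78.0, 65.3 and 104.8 CPM in Ezh2 replicates 1 to 3. Ezh2 replicate 3 stood apart from the other libraries, and the study left out 1 Ezh2 library that is inferred to be this one. The main comparison therefore used 5 libraries, and values from all 6 are given beside it. Of 13 RGC markers none was at 0 in all libraries, but they were low, summing to 172 to 175 CPM in the GFP libraries, 193 and 206 CPM in Ezh2 replicates 1 and 2, and 204 CPM in replicate 3. Of these markers, *Pou4f2*, which defines most RGCs, had at most 3 counts in any library. The 8 Müller glia markers summed to between 24591 and 31969 CPM. Per length, *Thy1*, which encodes the antigen of the sort, was at 30.1 CPM per kilobase of exon in the GFP libraries and the glial *Glul* at 2936. Markers of the labelled cell type were thus low beside those of glia, and in such bulk RNA fewer cells of a type cannot be told apart from less RNA per cell.

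All 35 genes passed the filter on low counts. With *Ezh2* overexpression, most of the chaperone arm rose by under 1.5-fold, and so did a few Atf4 arm genes, with *Chac1* above that size. In this text a gene "rose" if its adjusted p was under 0.05 in the 5 libraries (quasi-likelihood test of edgeR, adjusted by Benjamini-Hochberg), whatever the fold, and was "called" if it also changed by over 1.5-fold, the rule of the study. By the second rule 1 gene was called, *Chac1*, beside 3.80% of all 20241 genes tested (2.52% higher and 1.28% lower). By the adjusted p alone 13 of the 35 genes rose and none fell, which is 37.1% of the list beside 17.8% of all tested genes (10.1% higher and 7.68% lower). The median log2 fold change was 0.13 over the 35 genes and -0.01 over all tested genes.

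The libraries of the groups did not overlap for most of these genes. Ezh2 replicates 1 and 2 were both above every GFP library for 21 genes, were both below for 3 (*Atf5*, *Psat1* and *Eif2ak4*) and overlapped for 11. Over all tested genes, 44.9% did not overlap, 21.5% above and 23.4% below. With all 6 libraries 17 of the 35 genes lay above and 2 below, beside 14.9% and 19.3% (34.2% together) of all genes tested in that fit. That fit has a wider spread, with a biological coefficient of variation of 0.184 rather than 0.0846. In it, none of the 35 was called, beside 2.52% of all genes (1.62% higher and 0.902% lower). By the adjusted p alone 4 rose, *Cebpb*, *Hspa5*, *Manf* and *Calr*, which is 11.4% of the list beside 5.78% of all genes (3.08% higher and 2.70% lower).

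**Figure D1:**
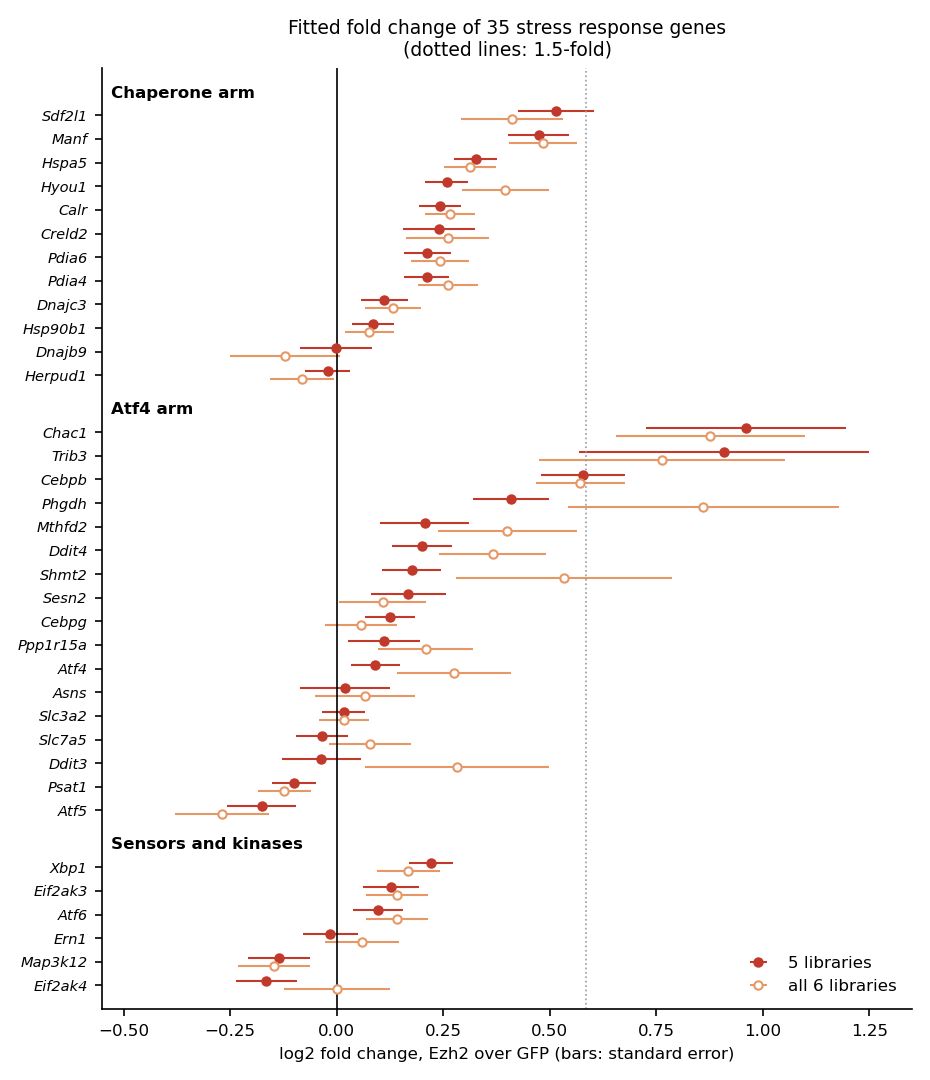
Fitted log2 fold change of Ezh2 over GFP for each of the 35 genes on the horizontal axis, with standard errors as bars, in the 5 libraries (filled points) and in all 6 (open points). Chaperone arm genes reach from -0.02 to 0.51 in the 5 libraries, and *Chac1*, *Trib3* and *Cebpb* lie farthest to the right in the Atf4 arm.

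In the chaperone arm, 8 of 12 genes rose (66.7% beside 10.1% of all tested genes), none fell and none was called. The median log2 fold change of the 12 genes was 0.23 (0.26 with all 6 libraries). In 10 of these genes (83.3%, beside 21.5% of all tested genes) the level was above all GFP libraries in both Ezh2 replicates 1 and 2. In 9 of them (75%, beside 14.9% of all genes tested in the 6 libraries) this also held in replicate 3. *Hspa5* (ENSMUSG00000026864, chr2:34771970-34777547, plus strand, GRCm38), whose product BiP is the main ER Hsp70 chaperone and holds the sensors inactive, was at 436, 415 and 399 CPM in GFP replicates 1 to 3 and at 519, 517 and 474 CPM in Ezh2 replicates 1 to 3. Every Ezh2 library was above every GFP library, and replicate 3 was the lowest of the Ezh2 libraries. Its log2 fold change was 0.33 ± 0.05 (SE; adjusted p = 1.5e-05, edgeR quasi-likelihood test), a fold of 1.25, and 0.31 in all 6 libraries (adjusted p = 0.0220). *Hspa5* also carried the ERSE printed above.

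*Manf* and *Sdf2l1* had the largest folds of the chaperone arm. *Manf* (chr9:106838312-106891979, minus strand), an ER stress-induced protein that is secreted and protects neurons, was at 42.2, 44.3 and 39.1 CPM in the GFP libraries and at 56.8, 58.6 and 55.6 CPM in the Ezh2 libraries. The groups did not overlap and the 3 Ezh2 libraries lay close together. On the log2 scale *Manf* differed by 0.47 ± 0.07 (adjusted p = 1.3e-05) in the 5 libraries and 0.48 (adjusted p = 0.0124) in all 6, by the same edgeR test. Exons of *Manf* overlap antisense exons of *Dcaf1*, and the strand setting of the counting is not given in the sources used here.

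*Sdf2l1* (chr16:17130138-17132383, minus strand), a partner of BiP in the folding complex, was at 20.4, 19.7 and 18.8 CPM in the GFP libraries and at 27.8, 27.9 and 20.7 CPM in the Ezh2 libraries. Ezh2 replicates 1 and 2 were clearly above the controls, while replicate 3 lay just above the highest control. Its log2 fold change was 0.51 ± 0.09 (adjusted p = 7.7e-05, edgeR) in the 5 libraries and 0.41 (adjusted p = 0.0826) in all 6.

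The other chaperones and folding enzymes that rose did so by less. *Calr* encodes calreticulin, the calcium-binding lectin chaperone of glycoproteins, and was at 402, 394 and 387 CPM in the GFP libraries and at 455, 470 and 458 CPM in the Ezh2 libraries. *Hyou1* encodes GRP170, the nucleotide exchange factor of BiP, and was at 138, 139 and 136 CPM in the GFP libraries and at 169, 159 and 201 CPM in the Ezh2 libraries. For both genes all Ezh2 libraries were above all GFP libraries. By the fit, log2 fold changes were 0.24 ± 0.05 for *Calr* (adjusted p = 5.4e-04) and 0.26 ± 0.05 for *Hyou1* (adjusted p = 3.8e-04) by edgeR. In all 6 libraries they were 0.27 (adjusted p = 0.0347) and 0.40 (adjusted p = 0.0560).

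Protein disulfide isomerases form and rearrange disulfide bonds, and *Pdia4* and *Pdia6* encode 2 of them. *Pdia4* was at 155, 146 and 141 CPM in the GFP libraries and at 167, 171 and 176 CPM in the Ezh2 libraries. *Pdia6* was at 150.2, 154 and 145 CPM in the GFP libraries and at 164, 179 and 172 CPM in the Ezh2 libraries. Neither gene overlapped between groups, and both had a log2 fold change of 0.21 with adjusted p of 0.00473 and 0.00505 in the 5 libraries (edgeR), and 0.0662 and 0.0729 in all 6. Without Ezh2 replicate 2 the adjusted p of *Pdia6* was 0.146. *Creld2*, which encodes a secreted ER stress-inducible protein, was at 28.9, 31.4 and 32.2 CPM in the GFP libraries and at 39.6, 32.9 and 35.4 CPM in the Ezh2 libraries. Its log2 fold change of 0.24 just passed the test (adjusted p = 0.0468, edgeR). It did not pass without GFP replicate 1, 2 or 3 or without Ezh2 replicate 1, where the adjusted p was 0.158, 0.0807, 0.0569 and 0.537.

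The remaining 4 chaperone arm genes did not pass the test. *Hsp90b1*, which encodes the ER Hsp90 GRP94, was at 320, 329 and 310 CPM in the GFP libraries and at 342, 332 and 312 CPM in the Ezh2 libraries, with a log2 fold change of 0.08 (adjusted p = 0.267, edgeR). *Dnajc3*, which encodes p58IPK, a co-chaperone of BiP and inhibitor of PERK, had a log2 fold change of 0.11 (adjusted p = 0.170). *Dnajb9*, the co-chaperone ERdj4 and a target of XBP1, was at 39.3, 34.0 and 37.1 CPM in the GFP libraries and at 33.8, 39.0 and 26.2 CPM in the Ezh2 libraries. *Herpud1*, whose product serves ER-associated degradation (ERAD), was at 163, 159 and 152 CPM in the GFP libraries and at 152, 157 and 128 CPM in the Ezh2 libraries. For these last genes the groups overlapped, replicate 3 was the lowest library, and the adjusted p was 0.989 and 0.838. Of the 6 genes with an ERSE, 4 rose (*Hspa5*, *Calr*, *Creld2* and *Pdia6*), and of the 4 without one, 2 rose (*Pdia4* and *Sdf2l1*).

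**Figure D2:**
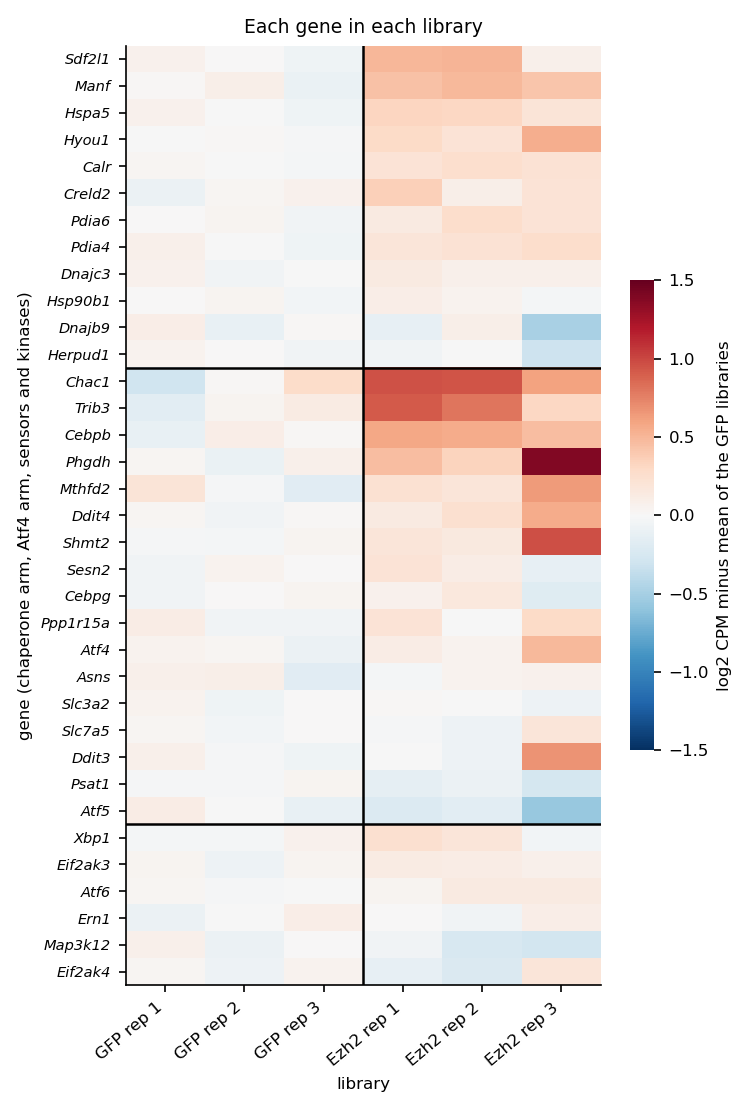
Color gives the log2 CPM of each gene (rows) in each library (columns) minus the mean of the 3 GFP libraries, with black lines between the arms and between the groups. The upper chaperone rows are red in all Ezh2 libraries, while in the Atf4 arm Ezh2 replicate 3 differs from replicates 1 and 2, most of all for *Phgdh*, *Shmt2* and *Ddit3*.

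The Atf4 arm was mixed. Of its 17 genes, 4 rose (*Cebpb*, *Chac1*, *Phgdh* and *Ddit4*), none fell, and 1 was called. That is 23.5% beside the 10.1% of all tested genes that rose, and 5.88% beside the 3.80% called. The median log2 fold change was 0.12 in the 5 libraries and 0.28 in all 6, where only *Cebpb* passed. *Atf4* (chr15:80255184-80257541, plus strand), the transcription factor that gives the arm its name and is controlled largely at translation, was at 103, 101 and 93.2 CPM in the GFP libraries and at 107, 103 and 139 CPM in the Ezh2 libraries. Ezh2 replicate 2 overlapped the controls and replicate 3 was the highest. The log2 fold change of *Atf4* was 0.09 (adjusted p = 0.305, edgeR) in the 5 libraries and 0.28 (adjusted p = 0.250) in all 6. *Atf5*, a related factor under similar translational control, was at 43.0, 39.8 and 37.1 CPM in the GFP libraries and at 34.6, 35.6 and 26.9 CPM in the Ezh2 libraries. All Ezh2 libraries were below all GFP libraries, with a log2 fold change of -0.18 that missed the threshold (adjusted p = 0.135).

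Among the factors acting with ATF4, *Cebpb* was the one that rose. *Cebpb* (chr2:167688915-167690418, plus strand), a bZIP factor that can pair with ATF4 and is also induced in inflammation, was at 14.4, 16.6 and 15.7 CPM in the GFP libraries and at 23.3, 22.8 and 21.4 CPM in the Ezh2 libraries. The groups did not overlap. The log2 fold change was 0.58 ± 0.10 (adjusted p = 6.2e-05, edgeR), a fold of 1.49 that lay just under the limit for a call, and 0.57 in all 6 libraries (adjusted p = 0.0164). Without GFP replicate 2 it was 0.63, past that limit, so that 2 of the 35 genes were then called. *Cebpg*, a partner of ATF4 in dimers, had a log2 fold change of 0.12 (adjusted p = 0.148) in the 5 libraries and 0.06 in all 6. *Ddit3*, which encodes the death-linked factor CHOP, was at 22.8, 21.5 and 20.8 CPM in the GFP libraries and at 21.5, 20.5 and 34.5 CPM in the Ezh2 libraries. Ezh2 replicates 1 and 2 lay among the controls or just below them, while replicate 3 was 1.64-fold above the mean of the other Ezh2 libraries. The log2 fold change was -0.04 ± 0.09 (adjusted p = 0.846) in the 5 libraries and 0.28 ± 0.22 (adjusted p = 0.450) in all 6. Exons of *Ddit3* overlap antisense exons of *Mars*, and the strand setting of the counting is not known here. *Mars* was at 58.1, 60.6 and 58.5 CPM in the GFP libraries and at 57.4, 59.7 and 90.3 CPM in the Ezh2 libraries. The part of *Mars* reads in the *Ddit3* counts was not tested.

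The stress-induced targets *Chac1* and *Trib3* had the largest folds of the 35 genes in the 5 libraries and the lowest levels per length. *Chac1* (ENSMUSG00000027313, chr2:119351229-119354381, plus strand), which encodes an enzyme that degrades glutathione, was at 1.86, 2.34 and 2.80 CPM in the GFP libraries and at 4.53, 4.48 and 3.53 CPM in the Ezh2 libraries. All Ezh2 libraries were above all GFP libraries, although the controls were themselves spread. The log2 fold change was 0.96 ± 0.23 (adjusted p = 0.00352, edgeR), a fold of 1.94, and 0.88 in all 6 libraries, where it missed the threshold (adjusted p = 0.0527). *Trib3*, which encodes a pseudokinase that damps ATF4 and CHOP, was at 0.851, 0.979 and 1.04 CPM in the GFP libraries and at 1.86, 1.71 and 1.195 CPM in the Ezh2 libraries. Its groups did not overlap either, but at this depth its log2 fold change of 0.91 ± 0.34 missed the threshold (adjusted p = 0.0620, edgeR).

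The feedback and growth regulators of the arm moved little. *Ddit4*, which encodes the mTORC1 inhibitor REDD1, was at 48.2, 45.6 and 47.9 CPM in the GFP libraries and at 51.7, 55.9 and 69.4 CPM in the Ezh2 libraries, without overlap. The log2 fold change of *Ddit4* was 0.20 ± 0.07 and only just passed (adjusted p = 0.0475, edgeR). It did not pass without GFP replicate 1, 2 or 3 or without Ezh2 replicate 2, where the adjusted p was 0.0672, 0.163, 0.0838 and 0.409. *Ppp1r15a*, which encodes GADD34, the subunit that directs dephosphorylation of eIF2α, had a log2 fold change of 0.11 (adjusted p = 0.423). *Sesn2*, which encodes the leucine sensor Sestrin2, had a log2 fold change of 0.17 (adjusted p = 0.204).

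**Figure D3:**
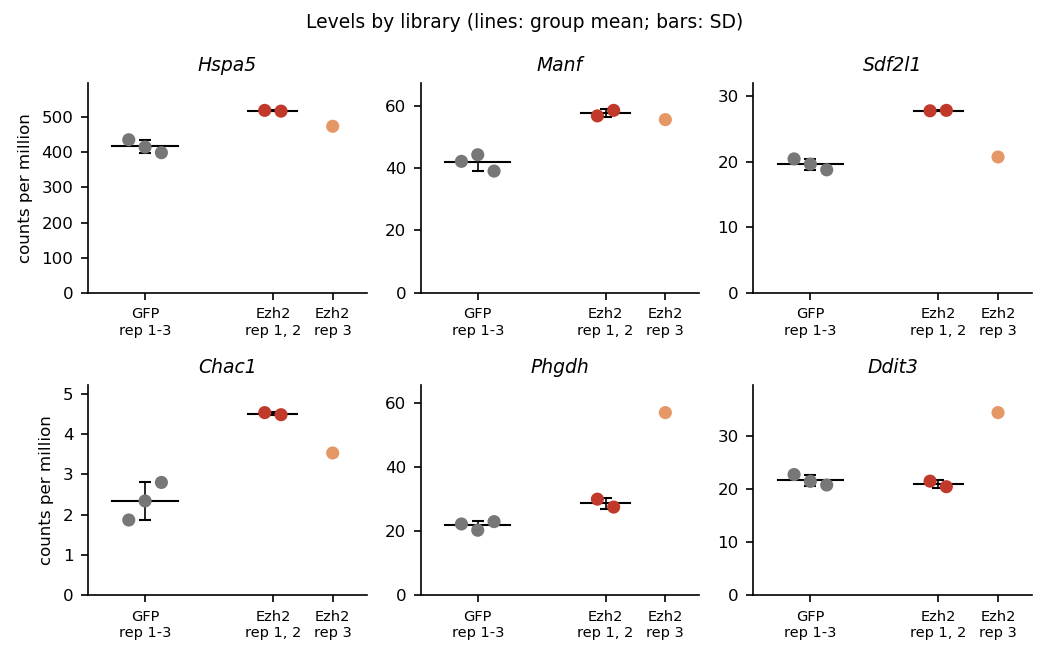
CPM of 6 genes in each library, with axes from 0, lines at the means of GFP replicates 1 to 3 and of Ezh2 replicates 1 and 2, and bars of 1 SD. *Hspa5*, *Manf* and *Chac1* are higher in all 3 Ezh2 libraries than in any GFP library, while *Phgdh* and *Ddit3* are highest in Ezh2 replicate 3, at 57.0 and 34.5 CPM.

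Among the serine synthesis and mitochondrial one-carbon enzymes, *Phgdh* and *Shmt2* were much higher in Ezh2 replicate 3 than in the other Ezh2 libraries. *Phgdh*, which encodes the first enzyme of serine synthesis, was at 22.2, 20.3 and 22.9 CPM in the GFP libraries and at 29.97, 27.5 and 57.0 CPM in the Ezh2 libraries. *Phgdh* rose in the 5 libraries, with a log2 fold change of 0.41 ± 0.09 (adjusted p = 0.00113, edgeR), while in all 6 it was 0.86 ± 0.32 (adjusted p = 0.175). *Psat1*, which encodes the next aminotransferase of the same pathway, went the other way, at 144, 144 and 149 CPM in the GFP libraries and 133, 137 and 121 CPM in the Ezh2 libraries. The groups of both genes did not overlap, but the log2 fold change of *Psat1*, -0.10, did not pass (adjusted p = 0.199). *Shmt2*, which encodes the mitochondrial serine hydroxymethyltransferase, was at 45.5, 45.2 and 47.3 CPM in the GFP libraries and at 52.4, 50.8 and 89.7 CPM in the Ezh2 libraries. Its log2 fold change was 0.18 (adjusted p = 0.0771) in the 5 libraries and 0.53 ± 0.25 (adjusted p = 0.257) in all 6. *Mthfd2*, the mitochondrial folate enzyme that acts next, was at 20.9, 18.0 and 16.2 CPM in the GFP libraries and at 21.3, 20.8 and 28.4 CPM in the Ezh2 libraries, with overlap and an adjusted p of 0.184 in the 5 libraries. Without GFP replicate 1 *Mthfd2* passed (log2 fold change 0.31, adjusted p = 0.0487).

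The amino acid enzyme and transporter genes of the arm did not pass the test. *Asns*, which encodes asparagine synthetase and carried the CARE shown above, was at 17.8, 17.9 and 15.0 CPM in the GFP libraries and at 16.6, 17.4 and 17.6 CPM in the Ezh2 libraries. *Slc7a5* and *Slc3a2* encode the light and heavy chains of the large neutral amino acid transporter. Their log2 fold changes were -0.04 (adjusted p = 0.761) and 0.02 (adjusted p = 0.871), and that of *Asns* was 0.02 (adjusted p = 0.933), with overlapping groups for all 3 genes. *Slc3a2* was among the most abundant of the 35 genes, at 84.9 CPM per kilobase of exon in the GFP libraries, beside 137 for *Calr*, 98.5 for *Hspa5*, 1.43 for *Chac1* and 0.450 for *Trib3* on the same scale of level per length.

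Of the 6 genes grouped as sensors and kinases, only *Xbp1*, which is neither, rose (16.7% beside 10.1% of all tested genes). *Xbp1*, which encodes the factor made active by IRE1 splicing, was at 125, 125 and 133 CPM in the GFP libraries and at 151, 145 and 124 CPM in the Ezh2 libraries. Ezh2 replicates 1 and 2 were above every control, and replicate 3 was just below the lowest control. Its log2 fold change was 0.22 ± 0.05 (adjusted p = 0.00259, edgeR), and in all 6 libraries it was 0.17 (adjusted p = 0.202). Counts per gene do not separate spliced from unspliced *Xbp1*. The genes of the sensors themselves had log2 fold changes of -0.02 (*Ern1*, adjusted p = 0.912), 0.10 (*Atf6*, adjusted p = 0.281) and 0.13 (*Eif2ak3*, adjusted p = 0.199). *Eif2ak4*, which encodes the amino acid sensor GCN2, was at 51.5, 48.0 and 52.6 CPM in the GFP libraries and at 46.4, 43.4 and 57.7 CPM in the Ezh2 libraries, with replicates 1 and 2 below and replicate 3 above every control. The log2 fold changes of *Eif2ak4* and *Map3k12*, which encodes DLK, were -0.16 (adjusted p = 0.116) and -0.13 (adjusted p = 0.220).

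Set against each other, the chaperone arm was ahead of the Atf4 arm in Ezh2 replicates 1 and 2 and behind it in replicate 3. For each library, the median over an arm of log2 CPM minus the GFP mean was taken. In the chaperone arm it was 0.20, 0.21 and 0.19 in Ezh2 replicates 1 to 3, and between -0.05 and 0.04 in the GFP libraries. In the Atf4 arm it was 0.13, 0.11 and 0.31 in Ezh2 replicates 1 to 3, and between -0.01 and 0.03 in the GFP libraries. So on library totals the chaperone arm was nearly at the same height in the 3 Ezh2 libraries, and the Atf4 arm was not. The median of all tested genes on this scale was 0.005, -0.02 and -0.12 in Ezh2 replicates 1 to 3. Relative to that median, the chaperone arm was higher in replicate 3 than in replicates 1 and 2. The difference of the arms was 0.07 and 0.09 in Ezh2 replicates 1 and 2 and -0.11 in replicate 3, while the GFP libraries lay between -0.05 and 0.02. From the fitted log2 fold changes, the difference of medians was 0.10 in the 5 libraries, and with all 6 it was -0.01. The members of an arm are not replicates, and this difference has no test.

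**Figure D4:**
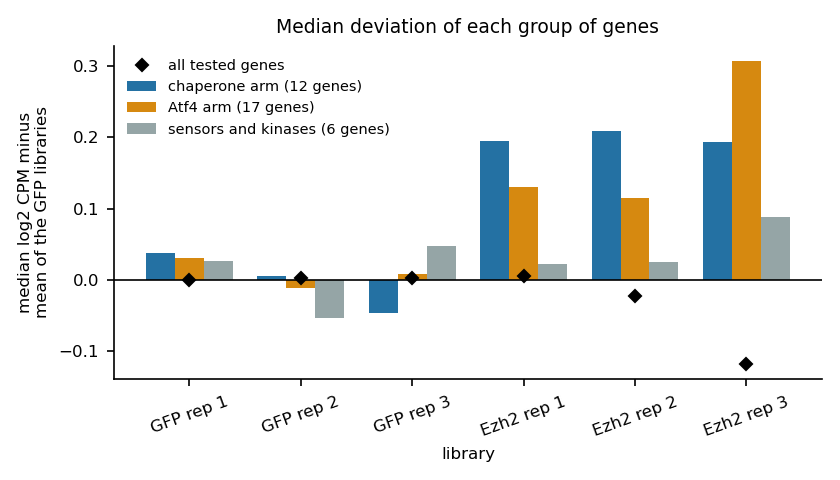
Median over the genes of each arm of log2 CPM minus the mean of the GFP libraries (bars), by library, with the median of all tested genes as diamonds. The chaperone arm is near 0.2 in every Ezh2 library, and the Atf4 arm reaches 0.31 in Ezh2 replicate 3, where the median of all tested genes is at -0.12.

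Ezh2 replicate 3 was outside the range of the other 5 libraries for 21 of the 35 genes, and also for most of all genes. It was above every other library for 12 of the 35 (34.3%, beside 25.5% of all genes tested in the 6 libraries) and below for 9 (25.7%, beside 38.6%). It was over 1.5-fold above the highest of the other libraries for 3 genes (*Phgdh*, *Shmt2* and *Ddit3*, all of the Atf4 arm), beside 5.81% of all genes. For none of the 35 was it over 1.5-fold below the lowest of the others, beside 5.50% of all genes. The other 14 genes lay within the range, 8 of them of the chaperone arm.

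In 2 other lists of ER genes, drawn up by function, smaller shares rose than the 66.7% of the chaperone arm. Their medians were also under the 0.23 of that arm. Of 19 genes of ERAD and of translocation into the ER, 5 rose and none fell, which is 26.3% beside the 10.1% of all tested genes that rose, and the median log2 fold change was 0.09. These were *Sec61b* and *Sec61a1*, subunits of the translocation channel, the signal peptidase subunit *Spcs3*, and *Edem1* and *Edem2*, which mark misfolded glycoproteins for disposal. *Sec61b* was at 21.001, 21.4 and 20.4 CPM in the GFP libraries and at 28.5, 30.1 and 31.0 CPM in the Ezh2 libraries, with a log2 fold change of 0.50 ± 0.09 (adjusted p = 8.9e-05, edgeR). *Edem1* was at 118, 121 and 114 CPM in the GFP libraries and at 153, 149 and 167 CPM in the Ezh2 libraries, with a log2 fold change of 0.37. Neither gene overlapped between the groups, and 4 of the 5 genes also passed in all 6 libraries. Of 20 other ER folding genes, 5 rose and none fell (25.0%), and the median log2 fold change was 0.07. Of those that rose, *Dnajb11* and *Ero1lb* had the largest log2 fold changes at 0.28 and 0.27. None of those 5 passed in all 6 libraries.

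Further genes on the Atf4 side went both ways. Of 20 other Atf4 targets tested, 6 rose (30% beside 10.1% of all tested genes) and 2 fell (beside 7.68%). Their median log2 fold change was 0.00. From this list 2 genes were called (10% beside 3.80% of all), *Gdf15* and *Eif4ebp1*. *Gdf15*, which encodes a stress-induced cytokine, was at 0.262, 0.316 and 0.163 CPM in the GFP libraries and at 0.807, 1.17 and 1.501 CPM in the Ezh2 libraries. *Eif4ebp1*, which encodes a repressor of cap-dependent translation, was at 8.44, 9.51 and 9.86 CPM in the GFP libraries and at 14.2, 14.0 and 13.7 CPM in the Ezh2 libraries. Neither overlapped between the groups, and their log2 fold changes were 2.00 ± 0.55 (adjusted p = 0.0090) and 0.62 ± 0.12 (adjusted p = 4.9e-04) by edgeR. The genes that fell were the amino acid transporters *Slc7a11* and *Slc1a4*, with log2 fold changes of -0.26 and -0.24. Of 12 tRNA synthetase genes 1 rose, *Tars* (8.33% beside 10.1%). Of 12 other genes of eIF2 phosphorylation and translation none rose and 1 fell (8.33% beside 7.68%). The gene that fell was the double-stranded RNA kinase gene *Eif2ak2*, at -0.18 on the log2 scale.

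In the DLK and JNK pathway, which reports axon damage to the nucleus, 2 of 12 genes rose, both called, and 2 fell. The 2 that rose and the 2 that fell are each 16.7% of the list. Over all tested genes, 10.1% rose, 7.68% fell and 3.80% were called. *Atf3*, an injury-induced factor that is also a target of ATF4, was at 19.95, 17.4 and 19.4 CPM in the GFP libraries and at 33.9, 30.3 and 44.3 CPM in the Ezh2 libraries. *Jun*, the main target of the JNK kinases, was at 236, 234 and 224 CPM in the GFP libraries and at 363, 335 and 340 CPM in the Ezh2 libraries. The groups overlapped for neither, and the log2 fold changes were 0.77 ± 0.09 and 0.61 ± 0.05. The kinase genes *Map3k13* and *Mapk10* fell, with log2 fold changes of -0.37 and -0.21. *Jun* and *Atf3* also belong to the immediate early response. In a separate list of 12 immediate early genes, 11 rose (91.7%) and 7 were called (58.3%).

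Markers of other cells moved with the groups. All lists below had no marker at 0 in every library. Over all tested genes, 10.1% rose, 7.68% fell and 3.80% were called. The 12 macrophage and microglia markers summed to 1748 to 1961 CPM in the GFP libraries, 3230 and 3781 CPM in Ezh2 replicates 1 and 2, and 2548 CPM in replicate 3, and 8 of the 11 tested rose. Most of the change in this sum came from *Lyz2*, at 374, 379 and 329 CPM in the GFP libraries and 1406, 1868 and 1223 CPM in the Ezh2 libraries. *Cd68* and *Mrc1* were also above every GFP library in replicate 3. The abundant *Csf1r* and *C1qa* were instead lowest in replicate 3, at 447 and 423 CPM. The 14 plasma and B cell markers, cells that are rich in ER chaperones, summed to 2250 to 2442, 2731 and 2594, and 1956 CPM in the same order, and 4 rose. The genes that rose were *Cd79b*, *Prdm1*, *Irf4* and *Igkc*, with log2 fold changes of 0.45, 0.43, 0.30 and 0.24. *Igkc* and *Jchain* made up most of the sum, and both were lowest in Ezh2 replicate 3, at 1172 and 269 CPM. *Prdm1* and *Irf4* were instead highest in that library, at 42.5 and 419 CPM. The 11 T cell markers summed to 471 to 502, 631 and 588, and 1423 CPM, and in the 5 libraries 8 rose. The sum was thus highest in Ezh2 replicate 3, as *Phgdh*, *Shmt2* and *Ddit3* were. Much of it there came from *Il2ra*, *Cd2* and *Foxp3*, at 442, 189 and 92.4 CPM. *Cd8a* was the only marker of the list not highest there, at 37.9 CPM beside 44.5 and 46.2 CPM in Ezh2 replicates 1 and 2. The Müller glia markers were lowest in that library, and in the 5 libraries 5 of 8 fell and 1 rose, while 8 of 8 cone markers rose and 4 of 8 amacrine markers fell. Of the 11 RGC markers tested 4 rose. The called genes of the lists given here were *Lyz2*, *Cd68* and *Mrc1* of macrophages, *Cd8a* of T cells, *Apoe* of the glial list, *Nefh* and *Tubb3* of RGCs, all 8 of cones, and *Tfap2b* of amacrine cells, which was lower. The part of these cells in the values of the 35 genes was not tested.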

How the data were processed

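The deposited table holds unnormalized counts of reads for each Ensembl gene, in 6 libraries made with a stranded total RNA kit. The labels name STAR 2.7.0d and GRCm38, without a role. The counting program, annotation release and strand setting are not given in the sources used here, so the 12 listed genes whose exons overlap antisense exons are uncertain to that extent (*Atf5*, *Cebpb*, *Cebpg*, *Ddit3*, *Ppp1r15a*, *Shmt2*, *Hsp90b1*, *Dnajb9*, *Pdia6*, *Manf*, *Eif2ak3* and *Map3k12*). GENCODE M21 gave symbols for 55480 of 55573 identifiers, coordinates and exon lengths. *Ddit3* has another identifier for an upstream reading frame, and the one with the longest exons was used.

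Ezh2 replicate 3 was left out of the main comparison. After filterByExpr and TMM scaling, the groups were compared without covariates by the robust quasi-likelihood test in edgeR 4.0.16 (R 4.3.3), adjusting p-values over all tested genes (Benjamini-Hochberg). A call required an adjusted p under 0.05 and a fold over 1.5. SE were taken from the F statistic. CPM were computed on library totals, and log2 CPM used a prior count of 2. A count of 0 allows up to 3 counts, or 0.0834 to 0.0981 CPM, which covers counting error only.

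The genes and lists were chosen with earlier results of these data known. All 35 genes are named. From the other lists, called genes are named, at most 3 in a direction, or up to 2 past the adjusted p where none was called, for the pathway lists; *Sec61a1*, *Spcs3* and *Edem2*, the fallen genes of the Atf4 target and DLK lists and single cell type markers were added after their values were seen. No 2 libraries of a group agreed within sampling noise, and each was counted in n. Such a spread does not show that they came from separate animals. Deviations of samples with the same replicate number correlated at -0.0045, -0.020 and -0.0099 between groups. The Ezh2 deviations were taken from a mean that includes the outlying replicate 3, so these values cannot decide whether the numbers pair the samples. As alternatives, the fit was repeated with all 6 libraries, leaving out single libraries, with a replicate block, with DESeq2 1.42.0, RLE factors or library totals, unfiltered, at a mean count of at least 50, and by the adjusted p alone. A fit without robust dispersion and the comparison of replicate 3 with the other libraries were added after seeing the data. The fits were tested on simulated counts. The result of 1 marker list is not reported here.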

Additional observations from a re-analysis of the deposited data

Results flagged for a closer look

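These 3 values lie in a library outside the main comparison, Ezh2 replicate 3, at over 1.5-fold above every other library. *Phgdh* was at 57.0 CPM there and at most at 29.97 CPM elsewhere. *Shmt2* was at 89.7 CPM and at most at 52.4 CPM elsewhere. *Ddit3* was at 34.5 CPM and at most at 22.8 CPM elsewhere, a ratio of 1.51. Its exons overlap antisense exons of *Mars*, which was also highest in this library, at 90.3 CPM, and the strand setting is not known. Of all genes tested in the 6 libraries, 5.81% lay above in this way, so such values are not particular to the 35 genes.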

How the results depend on the processing

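With all 6 libraries, none of the 35 genes was called and 4 passed the adjusted p alone, all higher. The median log2 fold change was then 0.28 in the Atf4 arm and 0.10 in the sensors, the difference of the arms turned to -0.014, and the values of *Ddit3* (0.28), *Slc7a5* (0.079) and *Ern1* (0.059) turned positive. In the fit with a replicate block, 2 genes were called, both higher (*Chac1* and *Cebpb*), *Asns* (-0.059), *Dnajb9* (0.0017) and *Ern1* (0.035) changed sign, and *Pdia4*, *Pdia6*, *Creld2* and *Ddit4* lost the threshold (adjusted p = 0.0675, 0.0521, 0.0639 and 0.104, edgeR). In the 6 libraries with the block, 0 genes were called and 2 passed, both higher, the Atf4 arm and sensor medians were 0.23 and 0.10, the difference of the arms was 0.027, and *Ddit3*, *Slc7a5* and *Ern1* were at 0.23, 0.071 and 0.058. By the adjusted p alone 13 genes counted.

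Leaving out each library in turn, from the 5 or the 6, gave 0 to 2 genes called, all higher, and 0 to 12 past the adjusted p alone, all higher. Within the 5 libraries, the counts were 1 to 2 called and 11 to 12 past. From the 6, none passed without any 1 GFP library, where the adjusted p of *Ezh2* itself was 0.0793, 0.0616 and 0.0877, and 1 or 4 passed without Ezh2 replicate 1 or 2. Medians ranged from 0.19 to 0.29 in the chaperone arm, 0.12 to 0.37 in the Atf4 arm and 0.019 to 0.12 in the sensors, and the difference of the arms from -0.10 to 0.11. *Ezh2* stayed between 1.05 and 1.56. Signs changed in the ranges of *Cebpg* (-0.012 to 0.19), *Ddit3* (-0.066 to 0.43), *Asns* (-0.059 to 0.11), *Slc7a5* (-0.056 to 0.14), *Slc3a2* (-0.014 to 0.045), *Dnajb9* (-0.25 to 0.11), *Herpud1* (-0.13 to 0.014), *Ern1* (-0.058 to 0.11) and *Eif2ak4* (-0.20 to 0.091). A lone Ezh2 library is assumed to vary like the controls.

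*Creld2* and *Ddit4* also lost the threshold under DESeq2, library totals and a fit without robust dispersion. No other result for the 35 genes changed sign or side under these, RLE factors or the 2 filters, except that *Trib3*, under 50 counts on average, was not tested at that filter. The causes were not tested.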
